A study of Mus musculus with 2 samples.

Results

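The 10 genes described here encode enzymes and chaperones that act on newly made collagen: Serpinh1, P4ha1, P4ha2, Crtap, P3h1, P3h2, Plod1, Plod2, Bmp1 and Pcolce. They were taken by gene symbol from the 32287 features of a single-cell RNA sequencing experiment, and all 10 had at least 1 unique molecular identifier (UMI, a tag that lets each captured RNA molecule be counted once). The cells came from the thoracic aortas of 2 GFPiSMC mice of the C57BL/6J strain, which form the wild-type (WT) group (n = 2 aortas, 1 animal each). These mice carry a Cre recombinase that the Myh11 promoter drives in smooth muscle cells (SMCs) and that tamoxifen switches on, together with the mT/mG reporter, which changes from tdTomato to eGFP where Cre has acted. Tamoxifen, 1 mg daily over 5 days, was injected into both mice when they were 3 weeks old, and their aortas were collected at an age of 12 weeks. The study's methods state that males were used. There was no untreated or mutant group, so every comparison is between cell types of the same aortas and addresses which cells of the wall held RNA for these steps of collagen synthesis.

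A procollagen chain is modified in the endoplasmic reticulum before its triple helix closes. Prolyl 4-hydroxylases make the helix stable at body temperature, prolyl 3-hydroxylases modify a few selected prolines, and lysyl hydroxylases prepare the residues that later carry sugars and cross-links. The chaperone HSP47, the product of Serpinh1, binds the folded helix on its way out of the cell. Outside, proteinases of the Bmp1 family remove the C-propeptide of fibrillar procollagens so that fibrils can form. In the aorta, SMCs of the media and fibroblasts of the adventitia both deposit collagen.

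Aorta 1 held 8947 cells and 47009780 UMIs and aorta 2 held 6263 cells and 30919996 UMIs as deposited. After filters on depth and mitochondrial share and removal of 205 and 84 predicted doublets, 6539 and 4614 cells were left, with median UMI counts of 5671 and 5396.5. Clustering gave 30 clusters, of which 29 were named from marker genes as 7 cell types: SMC-like, fibroblast-like, endothelial-like, mesothelial-like, myeloid-like, lymphocyte-like and erythroid-like. They are called SMCs, fibroblasts and so on from here, with 2281 and 1653 SMCs and 1567 and 1096 fibroblasts in aortas 1 and 2. The genes described, other collagen pathway genes and all collagen chains were kept out of the genes used for clustering. The SMC clusters held eGFP at 5701 to 6803 CPM (UMIs of a gene scaled to 1e+06 UMIs of the cells summed), against 78.3 to 257 CPM in 4 of the 5 fibroblast clusters. The fifth fibroblast cluster (155 cells, led by Mab21l2 and Faim2) held 3145 CPM of eGFP and 1649 CPM of Myh11 beside 24162 CPM of the fibroblast gene Dcn, and 1 SMC cluster (685 cells, led by Cyb5r3 and Optc) had a median of only 1719 UMIs per cell. Leaving out either cluster changed no call between SMCs and fibroblasts for the 10 genes. The libraries shared 18 cell barcodes. The unit throughout is CPM in the UMIs summed per aorta and cell type, and each level is given for aorta 1 and then aorta 2.

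Promoter windows of 3 genes are printed because these genes carry the contrast between fibroblasts and SMCs: Serpinh1 and P4ha1 were higher in fibroblasts with RNA in both types, and Pcolce had the largest difference. Each window runs 5′ to 3′ from 250 bases before to 50 bases after the RefSeq start in GRCm38.p6, and capitals mark every GGGCGG (a GC box), ACGTG and CCAAT on either strand.
Serpinh1, chr7:99353190-99353489, minus strand: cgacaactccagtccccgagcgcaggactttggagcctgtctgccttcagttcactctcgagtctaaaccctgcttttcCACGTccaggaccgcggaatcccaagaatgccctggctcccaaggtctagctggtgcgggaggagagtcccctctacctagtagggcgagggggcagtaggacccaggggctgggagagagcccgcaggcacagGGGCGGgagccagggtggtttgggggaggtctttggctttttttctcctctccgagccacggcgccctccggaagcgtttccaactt
P4ha1, chr10:59323046-59323345, plus strand: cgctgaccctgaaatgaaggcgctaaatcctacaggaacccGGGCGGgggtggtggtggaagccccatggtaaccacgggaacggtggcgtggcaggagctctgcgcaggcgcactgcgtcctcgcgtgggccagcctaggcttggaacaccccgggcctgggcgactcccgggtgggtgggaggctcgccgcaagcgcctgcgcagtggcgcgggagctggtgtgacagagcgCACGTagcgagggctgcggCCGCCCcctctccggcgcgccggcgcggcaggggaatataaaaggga
Pcolce, chr5:137611355-137611654, minus strand: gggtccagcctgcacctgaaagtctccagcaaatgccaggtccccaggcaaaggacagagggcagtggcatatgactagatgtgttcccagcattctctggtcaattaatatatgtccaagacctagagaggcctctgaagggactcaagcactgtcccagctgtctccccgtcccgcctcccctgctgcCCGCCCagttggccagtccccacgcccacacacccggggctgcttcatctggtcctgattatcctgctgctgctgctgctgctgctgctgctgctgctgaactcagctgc
RefSeq windows were matched for 7 of the 10 genes (P3h1, with 2 windows, Plod1, Pcolce, Serpinh1, Crtap, P4ha1 and P4ha2). GGGCGG stood in a window of all 7, against 35.7% of the 32851 windows in the table. CCACG was also present for all 7, against 32.8% of all windows. ACGTG, which can overlap CCACG, was present for 4 (P3h1, Serpinh1, P4ha1 and P4ha2, against 19.6%), TATAAA for 3 (Plod1, Crtap and P4ha1, against 13.6%) and CCAAT for P3h1 alone (against 37.4%). The CArG box was found in none of the 7 (1.63% of all windows), nor was the ERSE, the endoplasmic reticulum stress element that contains CCAAT and CCACG (0.119%). All were searched on both strands. These counts are per gene, with either window of P3h1 enough, whereas the shares are per window. The 8 windows of the 7 genes had 54.7% to 70.3% G and C bases, against a median of 52.7% over all windows. How far base content accounts for the motif counts was not tested. Among the windows printed, Serpinh1 and Pcolce each held 1 GC box, and Serpinh1 and P4ha1 also held an ACGTG.

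Collagen RNA itself was the yardstick. Summed over the 44 collagen chain genes in the annotation (42 with a UMI in the named types), fibroblasts held 34207 and 35490 CPM and SMCs held 8225 and 8145 CPM, so that fibroblasts were 4.16-fold and 4.36-fold above SMCs. Mesothelial cells held 5725 and 6630 CPM, endothelial cells 2522 and 2590 CPM, myeloid cells 431 and 419 CPM and lymphocytes 573 and 1119 CPM. The aortas did not overlap between fibroblasts and SMCs, but an exact permutation test (two-sided) of 2 against 2 cannot go below p = 0.333. The kind of collagen differed as well. Fibrillar chains made up 81.2% and 81.2% of collagen UMIs in fibroblasts and 45.2% and 46.0% in SMCs, whereas basement membrane chains made up 6.43% and 5.82% in fibroblasts and 42.5% and 41.3% in SMCs. For fibrillar chains alone, fibroblasts were 7.48-fold and 7.69-fold above SMCs, and for basement membrane chains they stood at 0.629 and 0.614 of the SMC level. The basement membrane chains counted were Col4a1 to Col4a6, Col15a1 and Col18a1, so this ratio does not describe type IV collagen alone. Col18a1 was at 1125 and 1097 CPM in SMCs and 51.8 and 57.0 CPM in fibroblasts. Col4a4 went the other way, at 10.8 and 13.0 CPM in SMCs and 280 and 241 CPM in fibroblasts.

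Among single chains, the log2 fold change of SMCs over fibroblasts was -3.63 ± 0.30 (SE) for Col1a1, -2.75 ± 0.29 for Col1a2 and -2.80 ± 0.29 for Col3a1, all chains of the major fibrils. It was -3.65 ± 0.23 for Col14a1, a fibril-associated collagen, -1.29 ± 0.17 for Col5a2 and -1.23 ± 0.14 for Col6a1. Col4a1, a basement membrane chain, was higher in SMCs by 0.50 ± 0.18, and Col18a1 by 4.43 ± 0.17. In all, 28 of the 44 chains had enough UMIs to be tested, of which 19 were higher in fibroblasts, 7 were higher in SMCs and 2 did not pass. For all genes tested, the shares were 30.3% higher in fibroblasts and 24.1% higher in SMCs. Among the 8 fibrillar chains tested, 7 were higher in fibroblasts, and among the 8 basement membrane chains, 5 were higher in SMCs and 2 in fibroblasts.

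**Figure D1:**
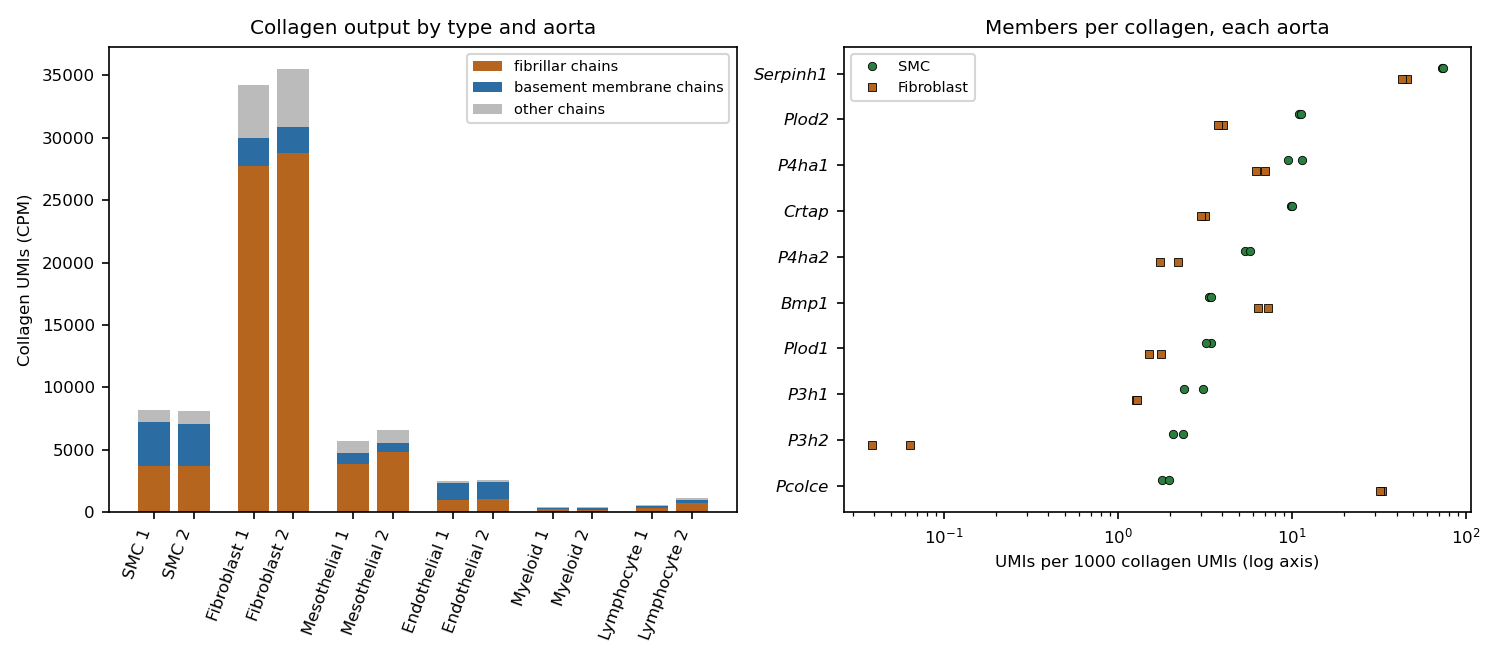
Left, UMIs of all collagen chains in CPM (y axis) for each cell type and aorta, stacked by fibrillar, basement membrane and other chains, with fibroblasts at 34207 and 35490 CPM and SMCs at 8225 and 8145 CPM. Right, UMIs of each of the 10 genes per 1000 collagen UMIs (log x axis), 1 point per aorta, in which SMCs (circles) lie to the right of fibroblasts (squares) for 8 genes and to the left for Pcolce and Bmp1.

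Of the 10 genes, 9 were higher in fibroblasts than in SMCs and 1, P3h2, was higher in SMCs (edgeR quasi-likelihood test, adjusted p under 0.05 over 14001 genes). Of all genes tested, 30.3% were higher in fibroblasts and 24.1% were higher in SMCs. The median log2 fold change of SMCs over fibroblasts was -0.96 over the 10 genes and -0.088 over all genes. Another scaling moved that centre to -0.31 (RLE factors), which shifts all genes alike. Relative to the centre of the main fit, the 10 genes ran from -6.05 for Pcolce to 3.53 for P3h2, with Crtap nearest to it at -0.24. Under RLE factors 29.6% of calls were higher in SMCs, against 44.3% in the main fit.

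**Figure D2:**
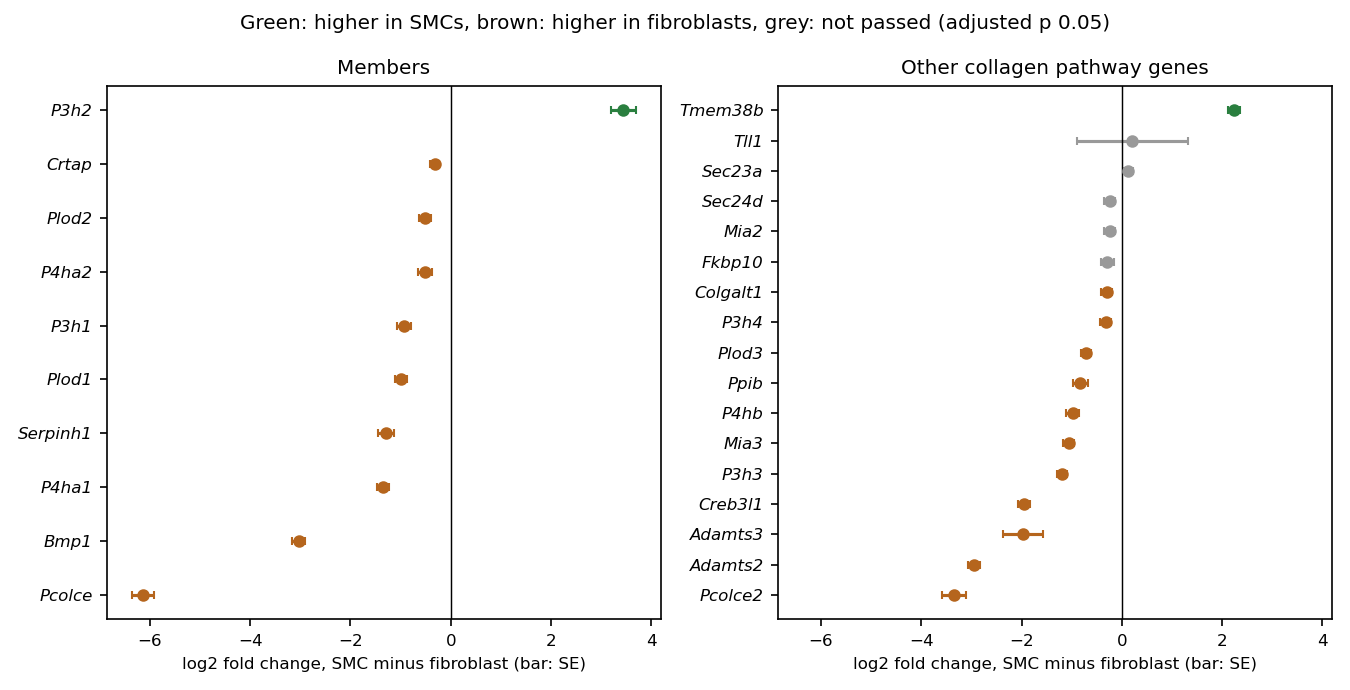
Log2 fold change (x axis) of SMCs minus fibroblasts for the 10 genes (left) and for the 17 other collagen pathway genes tested (right), with SE bars from 2 aortas. Only P3h2 on the left and Tmem38b on the right pass on the SMC side.

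Serpinh1, the collagen chaperone, stood at 1572 and 1524 CPM in fibroblasts, 1071 and 897 CPM in mesothelial cells, 603 and 599 CPM in SMCs and 319 and 281 CPM in endothelial cells. Myeloid cells held 23.7 and 19.8 CPM. None of these groups overlapped, and each neighbour in the order of fibroblasts, mesothelial cells, SMCs and endothelial cells differed from the next. SMCs were below fibroblasts by a log2 fold change of -1.29 ± 0.16 (SE), with an edgeR adjusted p = 2.74e-07. With each cell thinned to 1000 UMIs, 73.5% and 71.4% of fibroblasts and 41.2% and 41.4% of SMCs held a Serpinh1 UMI, against 2.25% and 3.86% of lymphocytes, which are not known to make fibrillar collagen. Without thinning the shares were 97.8% and 97.9% of fibroblasts (median depths of 5896 and 5712 UMIs), 85.5% and 85.7% of SMCs (7695 and 7477 UMIs) and 5.47% and 8.54% of lymphocytes (4091.5 and 3907 UMIs).

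P4ha1 and P4ha2 encode alternative catalytic subunits of prolyl 4-hydroxylase. P4ha1 was at 240 and 222 CPM in fibroblasts, 94.2 and 77.2 CPM in SMCs and 73.4 and 72.2 CPM in myeloid cells, so that fibroblasts stood clear of every other type. Its log2 fold change between SMCs and fibroblasts was -1.35 ± 0.12 (adjusted p = 3.13e-09). Mesothelial cells (140 and 119 CPM), SMCs, endothelial cells (85.5 and 72.9 CPM) and myeloid cells formed a run in which no neighbour passed the test against the next. Mesothelial cells were nevertheless above the types further down the run. Endothelial minus mesothelial cells was -0.65 ± 0.16 (adjusted p = 0.00264), and mesothelial minus myeloid cells was 0.52 ± 0.16 (adjusted p = 0.00794). P4ha2 was at 60.1 and 78.5 CPM in fibroblasts and 61.6 and 75.7 CPM in endothelial cells, which overlapped. It was at 44.6 and 46.7 CPM in SMCs, and the difference from fibroblasts was -0.52 ± 0.14 (adjusted p = 0.00294). Among cells of 5000 or more UMIs this difference no longer passed (-0.37, adjusted p = 0.0663).

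Crtap and P3h1 encode partners of a complex that 3-hydroxylates a proline of fibrillar collagen. Crtap was nearly even over the structural cells, at 108 and 106 CPM in fibroblasts, 88.2 and 93.2 CPM in mesothelial cells, 81.9 and 81.3 CPM in SMCs and 72.3 and 83.2 CPM in endothelial cells. Its difference between SMCs and fibroblasts was the smallest of the 10 (-0.32 ± 0.10, adjusted p = 0.0072) and did not pass among cells of 5000 or more UMIs (adjusted p = 0.0608) or with doublets kept (adjusted p = 0.0511). An annotated gene on the opposite strand of Crtap, 4930520O04Rik, held 794 UMIs in SMCs and 13 in fibroblasts, against 2362 and 1759 UMIs of Crtap. Whether strand was used in the counting is not given in the sources used here, so reads from this pair of genes may not have been told apart. P3h1 was at 43.5 and 45.7 CPM in fibroblasts and 19.7 and 25.01 CPM in SMCs (-0.93 ± 0.14, adjusted p = 5.51e-06). Mesothelial cells were at 35.3 and 38.7 CPM and endothelial cells at 23.0 and 32.1 CPM. In the P3h1 order the tests between mesothelial and endothelial cells (adjusted p = 0.211) and between endothelial cells and SMCs (adjusted p = 0.695) did not pass, and SMCs were above myeloid cells by 1.83 ± 0.21 on the log2 scale (adjusted p = 9.68e-08).

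P3h2, a prolyl 3-hydroxylase known for acting on basement membrane collagen, ran against the other genes. It was at 17.0 and 19.2 CPM in SMCs and 1.33 and 2.27 CPM in fibroblasts, groups that did not overlap (log2 fold change 3.44 ± 0.25, adjusted p = 5.49e-11). The call held under the 13 alternatives with a test, but its size moved to 2.50 with doublets kept, 2.70 with these genes and the collagens in clustering, 2.81 at Leiden resolution 0.5 and 4.07 among cells of 5000 to 25000 UMIs. In UMIs this was 518 in SMCs and 28 in fibroblasts. Myeloid cells held as much as SMCs within the spread (17.9 and 17.1 CPM, 173 UMIs), and the test between them did not pass (-0.021 ± 0.181 for SMCs minus myeloid cells, adjusted p = 0.935). Endothelial cells were at 3.77 and 5.94 CPM (27 UMIs), and mesothelial cells at 1.10 and 0 CPM (2 UMIs). The level in fibroblasts was 0.0785 and 0.118 of that in SMCs and lay inside the range that the 8 SMC markers showed in fibroblasts (0.0285 to 0.130 in aorta 1 and 0.0317 to 0.131 in aorta 2). Without the fibroblast cluster that held SMC markers it was 0.0715 and 0.125, against at most 0.119 and 0.111 for the markers, so in aorta 2 it lay above them. Of the 28 UMIs, 21 came from the fibroblast cluster led by Dio2 and Mmp3 (2.18 and 7.04 CPM). How much of this low level is free RNA was not tested. In myeloid cells the ratio to SMCs was 1.05 and 0.889, whereas the SMC markers reached at most 0.0390 and 0.0534 there. A non-coding gene on the same strand, AU015336, overlaps P3h2 and held 11 UMIs in SMCs, 2 in fibroblasts and 11 in myeloid cells.

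Plod1 and Plod2 encode lysyl hydroxylases, of which Plod2 acts on the telopeptide lysines that enter cross-links. Plod1 was at 63.2 and 57.9 CPM in endothelial cells and 60.8 and 53.9 CPM in fibroblasts, which overlapped. SMCs were lower, at 28.3 and 26.4 CPM (SMC minus fibroblast -0.996 ± 0.117, adjusted p = 1.86e-07), and SMCs and myeloid cells (22.9 and 19.3 CPM) did not pass the test against each other. Plod2 was at 138 and 134 CPM in fibroblasts and 90.2 and 91.8 CPM in SMCs, without overlap (-0.51 ± 0.12, adjusted p = 0.00131). Among cells of 5000 or more UMIs the Plod2 difference did not pass (-0.32, adjusted p = 0.0818). Mesothelial cells (46.8 and 63.4 CPM) and endothelial cells (38.7 and 41.2 CPM) were below SMCs, and myeloid cells held only 4.87 and 1.90 CPM.

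Pcolce encodes a secreted protein that enhances C-propeptide cleavage, and Bmp1 encodes the proteinase. Pcolce was at 1135 and 1136 CPM in fibroblasts and 616 and 687 CPM in mesothelial cells, and at 14.7 and 16.0 CPM in SMCs. Its log2 fold change of -6.14 ± 0.21 between SMCs and fibroblasts (adjusted p = 1.98e-16) was the largest of the 10 genes. The SMC level was 0.0130 and 0.0141 of that in fibroblasts, inside the range of the 8 fibroblast markers in SMCs (0.00309 to 0.0483 and 0.00349 to 0.0477). After thinning, 1.93% and 1.33% of SMCs held a Pcolce UMI (44 of 2281 and 22 of 1653 cells, exact 95% intervals 1.41% to 2.58% and 0.836% to 2.01%, which cover counting error only), against 1.29% and 1.10% of lymphocytes and 58.8% and 57.3% of fibroblasts. Without thinning, 8.42% and 8.83% of SMCs and 3.22% and 3.58% of lymphocytes held one. Within SMCs it was uneven, at 29.4 and 30.3 CPM in the cluster led by Carmn and Myom1, which held 204 UMIs, and 12.4 and 12.8 CPM in the cluster led by Lrrtm3 and Rgs5. The fibroblast gene Dcn was at 185 CPM in the former cluster and 102 CPM in the latter. In the cluster led by Cyb5r3 and Optc, Dcn was at 84.0 CPM and Pcolce at 15.2 and 15.2 CPM. How much of the SMC signal, and so of the ratio to fibroblasts, rests on free RNA was not tested. Fbxo24, which overlaps Pcolce on the same strand, held 13 UMIs in SMCs and 53 in fibroblasts.

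Bmp1 was at 218 and 261 CPM in fibroblasts, 54.6 and 61.4 CPM in mesothelial cells, 28.9 and 29.3 CPM in endothelial cells and 27.5 and 28.0 CPM in SMCs. Fibroblasts stood above all others without overlap, and the difference from SMCs was -3.03 ± 0.13 (adjusted p = 3.31e-15). Unlike Pcolce, its ratio of SMCs to fibroblasts, 0.126 and 0.107, lay above all 8 fibroblast markers. SMCs and endothelial cells did not differ in the test.

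**Figure D3:**
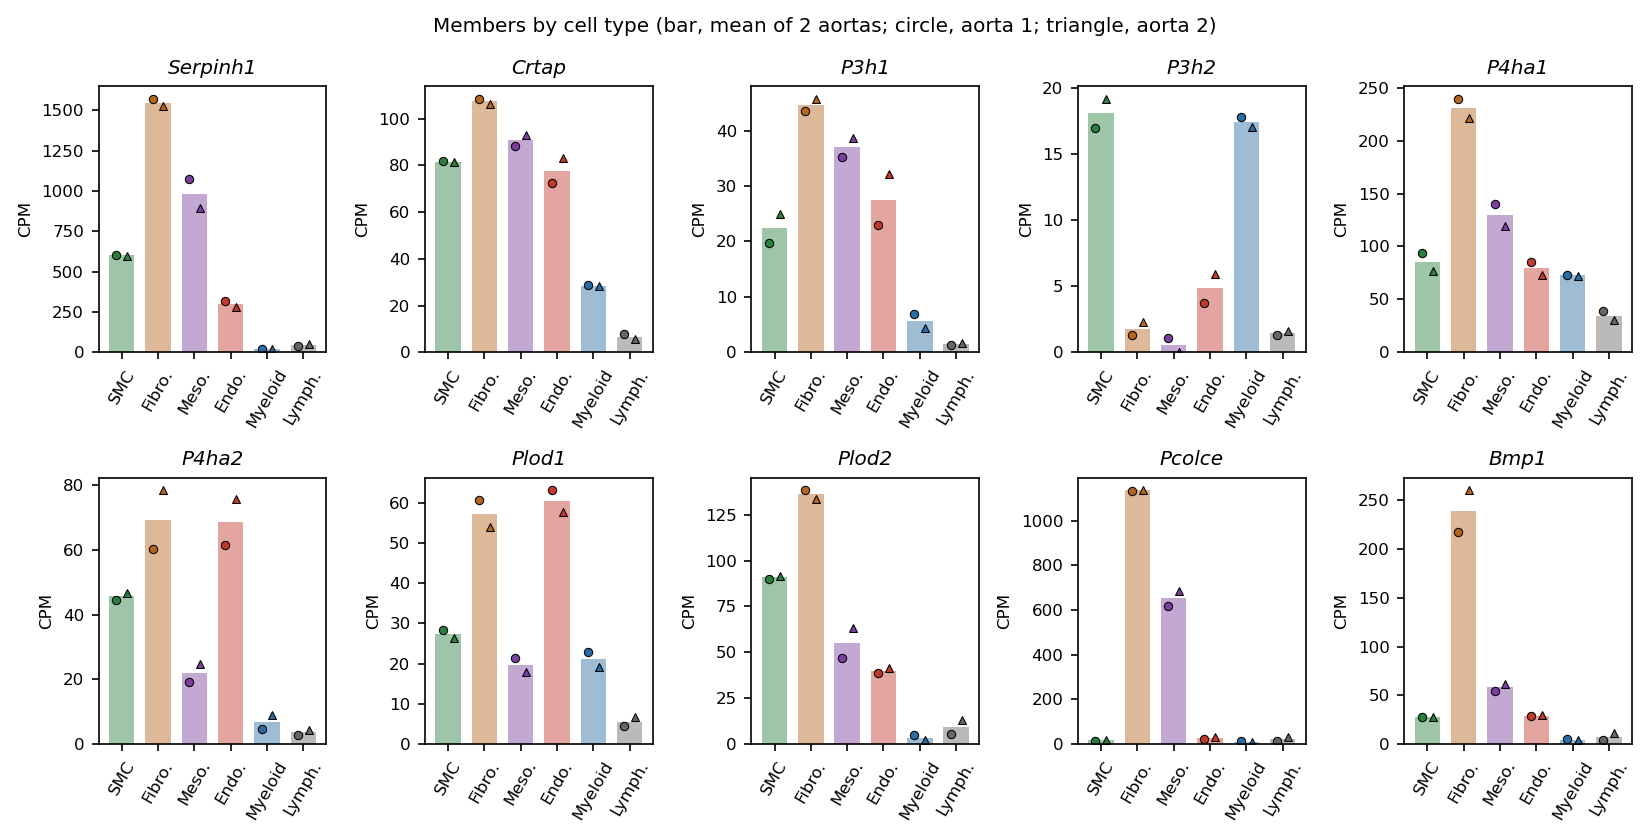
Level of each of the 10 genes in CPM (y axes, each from 0) in 6 cell types, with a bar for the mean of 2 aortas and a point for each aorta. Fibroblasts are highest for 8 genes, endothelial cells overlap with fibroblasts for P4ha2 and Plod1, and P3h2 is highest in SMCs and myeloid cells.

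Among 21 further genes of the collagen pathway, 17 could be tested, of which 11 were higher in fibroblasts, 1 was higher in SMCs and 5 did not pass. Of all genes tested, 30.3% were higher in fibroblasts and 24.1% in SMCs. Pcolce2, a relative of Pcolce, was at 924 and 1012 CPM in fibroblasts and 79.9 and 102 CPM in SMCs (-3.35 ± 0.24). Adamts2 and Adamts3, which encode proteinases of the N-propeptide, differed by -2.95 ± 0.11 and -1.97 ± 0.41. Pcolce, Pcolce2, Bmp1 and Adamts2 held the 4 largest fibroblast-side differences among the 27 tested genes, a description that no test of a group backs. The related proteinase gene Tll1 rested on 4 UMIs in SMCs and 2 in fibroblasts and did not pass (0.21 ± 1.11, adjusted p = 0.898), and Adamts14, with 24 and 19 UMIs, was not tested. Creb3l1, which encodes a membrane-bound transcription factor of secretory cells, differed by -1.95 ± 0.12, as much as Adamts3 within the error, and P3h3, which encodes a partner in lysine hydroxylation, by -1.19 ± 0.10. The gene on the SMC side was Tmem38b, which encodes a cation channel of the endoplasmic reticulum, at 80.5 and 87.3 CPM in SMCs and 19.2 and 17.9 CPM in fibroblasts (2.24 ± 0.12, adjusted p = 1.72e-13).

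Set against collagen output, the order turned for most genes. Per 1000 collagen UMIs, SMCs held 73.4 and 73.5 Serpinh1 UMIs and fibroblasts held 46.0 and 42.9. For Plod2 the values were 10.97 and 11.27 in SMCs and 4.05 and 3.77 in fibroblasts, and for Crtap 9.96 and 9.99 in SMCs and 3.17 and 3.00 in fibroblasts. P3h2 was at 2.07 and 2.36 in SMCs and 0.0390 and 0.0640 in fibroblasts. In total, 8 of the 10 genes were higher in SMCs in both aortas, but 83.8% of all genes tested were too, since each value is divided by a collagen sum that is larger in fibroblasts. That share is near the count among the 10 genes, which is then no result about them. Pcolce (1.79 and 1.97 in SMCs, 33.2 and 32.0 in fibroblasts) and Bmp1 (3.34 and 3.43 in SMCs, 6.36 and 7.34 in fibroblasts) were higher in fibroblasts even per collagen UMI, as were 7.58% of all genes. Put as ratios of CPM between fibroblasts and SMCs, Pcolce was at 77.2 and 70.9 and Bmp1 at 7.93 and 9.32, both above the collagen ratio of 4.16 and 4.36. Against fibrillar chains alone, whose ratio was 7.48 and 7.69, Pcolce was far above and Bmp1 only slightly. The other 7 fibroblast-side genes lay below it, between 1.31 (Crtap in aorta 2) and 2.87 (P4ha1 in aorta 2).

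With the 10 genes summed, the UMIs per 1000 collagen UMIs were 124 and 124 in SMCs, 105 and 100 in fibroblasts, 285 and 275 in endothelial cells and 366 and 302 in mesothelial cells. Myeloid cells were higher still, at 461 and 442, and lymphocytes were at 205 and 144. These values are large where collagen is low (431 and 419 CPM in myeloid cells, 2522 and 2590 CPM in endothelial cells), and the sum itself was 718 and 712 CPM in endothelial cells, below the 1022 and 1010 CPM of SMCs. The ratio is therefore no result about these genes. The mesothelial sum was mostly in Serpinh1 (187 and 135 per 1000) and Pcolce (108 and 104 per 1000). In endothelial cells, Serpinh1 was at 127 and 109 per 1000, P4ha1 at 33.9 and 28.2 and Plod1 at 25.1 and 22.3.

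The UMIs of all analysed cells were divided among the cell types as follows. Fibroblasts held 67.2% ± 0.105 (SD, n = 2) of collagen UMIs and SMCs 28.0% ± 0.226. Fibroblasts held 87.7% ± 0.124 of Pcolce UMIs and 76.3% ± 1.57 of Bmp1 UMIs. SMCs held 68.7% ± 2.52 of P3h2 UMIs and myeloid cells 22.4% ± 4.30. The SMC share was 49.5% ± 0.984 for Plod2, 46.1% ± 0.452 for Crtap and 44.4% ± 3.73 for P4ha2, above the fibroblast share in each case. SMCs also held more UMIs of all genes, 17011588 and 11913594, against 9743210 and 6601744 in fibroblasts. The larger SMC shares are thus no preference for SMCs, and in CPM Plod2, Crtap and P4ha2 were higher in fibroblasts. These shares depend on how many cells of each type survived digestion, sorting and the filters on cells.

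Between SMCs and endothelial cells, which both make a basement membrane, 4 genes were higher in SMCs (26.5% of all genes were), 2 were higher in endothelial cells (26.7% were) and 4 did not pass. Plod2 (1.39 ± 0.16, adjusted p = 1.01e-07), Serpinh1 (1.20 ± 0.16, adjusted p = 1.21e-06) and P3h2 (2.12 ± 0.27, adjusted p = 4.67e-07) were clearly higher in SMCs. Crtap passed by little (0.28 ± 0.11, adjusted p = 0.0387) and lost the call under 6 of 13 alternatives, with adjusted p up to 0.641 under library totals. Its difference was 0.14 without aorta 1 and 0.42 without aorta 2. Plod1 was higher in endothelial cells (-0.94 ± 0.13, adjusted p = 2.3e-06), as was P4ha2 (-0.38 ± 0.15, adjusted p = 0.0439), which did not pass among cells of 5000 or more UMIs (adjusted p = 0.645) or with doublets kept (adjusted p = 0.0545). Pcolce did not pass (-0.59 ± 0.25, adjusted p = 0.0547) but passed on the endothelial side under 10 of 13 alternatives, among them the aorta as a block (-0.58, adjusted p = 0.0242) and doublets kept (-1.81, adjusted p = 2.9e-08). With 1 aorta left out it was -0.84 without aorta 1 and -0.30 without aorta 2. P4ha1 (0.32, adjusted p = 0.0658) passed on the SMC side under 3 of 13, among them the block (0.32, adjusted p = 0.0243).

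Between fibroblasts and endothelial cells, 7 genes were higher in fibroblasts (24.1% of all genes were) and P3h2 was higher in endothelial cells (-1.32 ± 0.40, adjusted p = 0.00926; 20.1% of all genes were). The P3h2 call rested on 28 and 27 UMIs and was lost with doublets kept (adjusted p = 0.49), with these genes and the collagens allowed in clustering (adjusted p = 0.224) and at the lower clustering resolution (adjusted p = 0.169), whereas among cells of 5000 to 25000 UMIs the difference was larger (-2.32, adjusted p = 0.00303). Pcolce (5.55) was at 4.66 with doublets kept and 4.77 among cells of 5000 or more UMIs. P4ha2 (0.14 ± 0.15) and Plod1 (0.053 ± 0.129) did not pass. Between mesothelial cells and fibroblasts, 0 genes were higher in mesothelial cells by edgeR, also at an unadjusted p under 0.05 and by DESeq2 (16.1% of all genes were) and 9 were higher in fibroblasts (22.6% were). The differences ran from -0.45 ± 0.12 for Crtap to -2.25 ± 0.15 for Bmp1, and P3h2, with 2 UMIs in mesothelial cells, did not pass. P3h1 passed at adjusted p = 0.0494 and lost the call under 7 of 13 alternatives, with adjusted p up to 0.358 among cells of 5000 or more UMIs. Crtap lost it under 2, library totals (adjusted p = 0.166) and cells of 5000 or more UMIs (adjusted p = 0.0808). The mesothelial cells numbered 275 and 158, and their main cluster held the fibroblast gene Dcn at 4896 CPM, against 11858 to 16655 CPM in the 4 fibroblast clusters without SMC markers. Its part in the Pcolce level of mesothelial cells was not tested. A small second cluster (24 cells, led by Cxcl13 and Col6a5) held Dcn at 10953 CPM and the fibroblast gene Pdgfra at 488 CPM, against 10.7 CPM of Pdgfra in the main cluster, and no mesothelial marker was among its 10 leading genes, so its values go against the name. Without it the counts of genes were again 0 and 9, and the difference moved to -0.71 for Crtap and -0.59 for P3h1 (adjusted p = 0.000138 and 0.0248).

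Within a cell type the genes varied between clusters, which are given here as a description because they were drawn from the same cells. Among the 5 SMC clusters, P3h2 spread most. It was at 22.8 and 26.1 CPM in the cluster led by Carmn and Myom1 (933 cells). In the cluster led by Lrrtm3 and Rgs5 (886 cells) it was at 1.69 and 1.64 CPM, which rests on 11 UMIs. That same cluster held the highest SMC levels of Serpinh1 (787 and 761 CPM), Crtap (114 and 108 CPM), P3h1 (30.4 and 36.7 CPM), Plod1 (36.9 and 33.8 CPM) and collagen (10413 and 10608 CPM). The highest cluster mean was 14.7-fold above the lowest for P3h2 and between 1.49-fold (P4ha2) and 3.49-fold (Pcolce) for the other 9 genes.

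Among the 5 fibroblast clusters, the genes peaked in different places. Collagen was highest in the cluster led by Comp and C7 (44645 and 47419 CPM) and the cluster led by Dio2 and Mmp3 (40723 and 47350 CPM). Pcolce was highest in the first (1871 and 1853 CPM), where P4ha1 (338 and 307 CPM) and Serpinh1 (1882 and 1889 CPM) peaked too. Plod2 was highest in the second (208 and 263 CPM). Bmp1 was highest in a cluster led by Pla1a and Aldh1a3 (317 and 358 CPM), whose collagen was at only 15083 and 16053 CPM and whose leading genes include Pi16. The cluster that held eGFP and SMC markers, led by Mab21l2 and Faim2, was lowest for Serpinh1 (893 and 704 CPM), Bmp1 (83.8 and 71.5 CPM), Pcolce (103 and 23.8 CPM) and collagen.

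P3h2 in myeloid cells lay largely in 1 cluster. The cluster led by Folr2 and Mrc1, which mark resident tissue macrophages, held 32.2 and 32.4 CPM and 153 of the 173 myeloid UMIs. Clusters led by Saa3 and Alox15 and by S100a9 and S100a8 held 0 P3h2 UMIs, which allows up to 3 UMIs each. Among endothelial clusters, the one led by Ccl21a and Mmrn1, which mark lymphatic endothelium, held 18.0 and 19.7 CPM of P3h2 (8 UMIs), 144 and 94.6 CPM of Plod1 and 48.0 and 173 CPM of Pcolce.

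**Figure D4:**
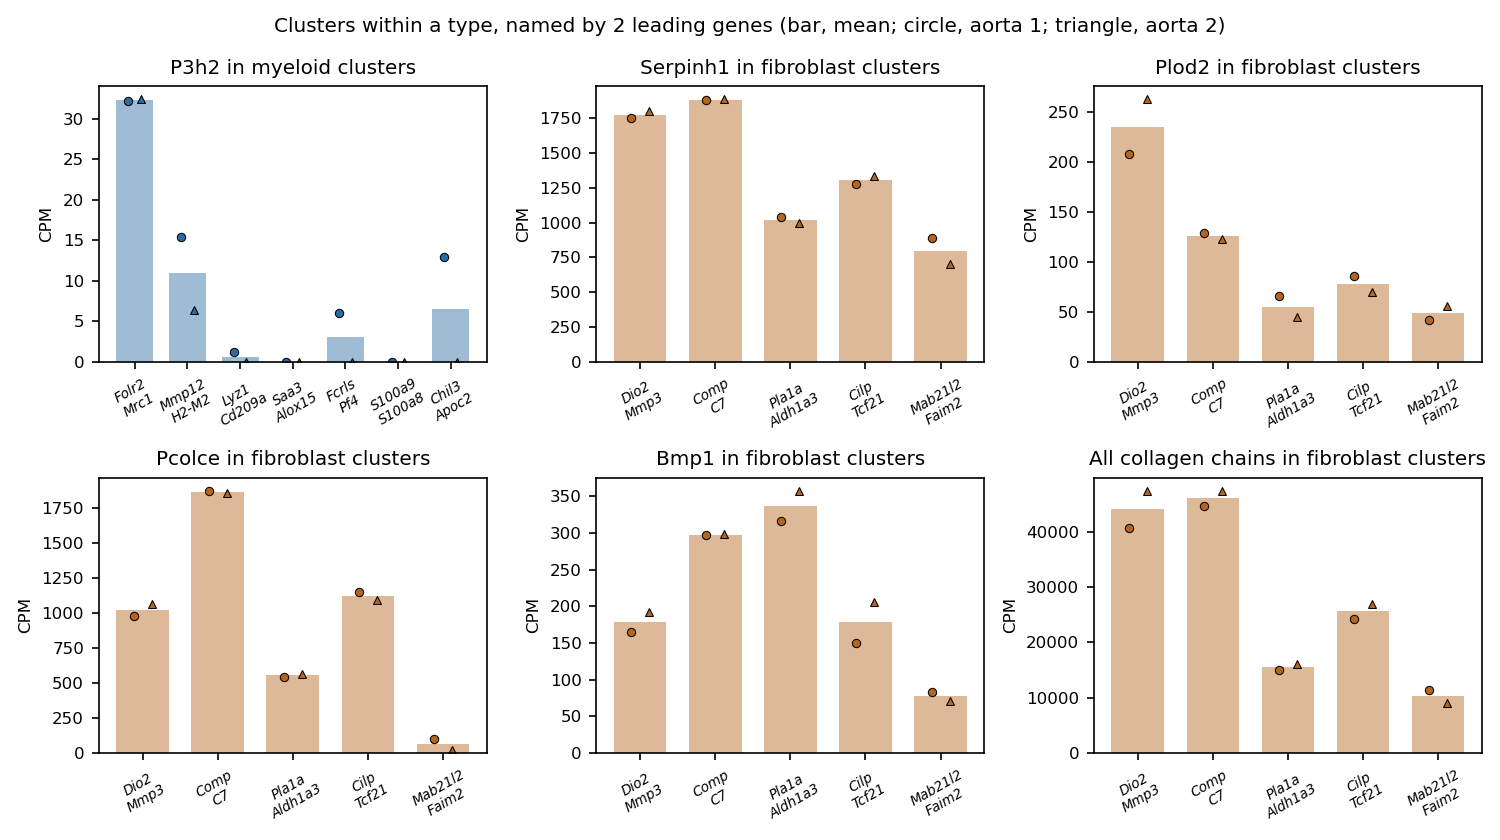
CPM (y axes, from 0) of P3h2 in myeloid clusters and of Serpinh1, Plod2, Pcolce, Bmp1 and all collagen chains in fibroblast clusters, ordered by cell number and named by 2 leading genes, with a bar for the mean and a point for each aorta. P3h2 is at 32.2 and 32.4 CPM in the myeloid cluster led by Folr2 and Mrc1, and Plod2, Pcolce and Bmp1 peak in 3 different fibroblast clusters.

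Over the 14 sums of aorta and cell type, the genes described were alike to differing degrees, as Pearson correlations of log2 CPM, in which the sums of an aorta share a library and the 2 small erythroid sums weigh heavily. Serpinh1 and Bmp1 were the most alike (r = 0.957), followed by P3h1 and P4ha2 (r = 0.955) and Crtap and Plod1 (r = 0.944). P3h2 was least like the rest, from -0.230 with Pcolce to 0.487 with Plod1. Among 8640 other genes of at least 10 CPM, those most like P3h2 were Cbr2 (r = 0.956), Spop (0.928) and Entpd1 (0.916). The genes most like Pcolce were Smoc2 (0.975), Flrt2 (0.962) and C1s1 (0.958), and those most like Bmp1 were Timp1 (0.985), Ptgfrn (0.979) and Ubtd2 (0.963). For Serpinh1 they were Prelp (0.990), Armcx2 (0.988) and Camk2n1 (0.987), and for Plod2 they were Cavin3 (0.932), Hmgn3 (0.931) and Lamc1 (0.927). Crtap was most like Tcf7l2 (0.992), Tceal8 (0.987) and Poglut3 (0.985), and P3h1 most like Ube2e2 (0.990), Sgce (0.986) and Zfp948 (0.982). P4ha1 was most like Slc39a1 (0.992), Ctdsp2 (0.990) and Gfpt1 (0.988), P4ha2 most like Rusc2, Rilpl1 and Zdhhc1 (0.979, 0.977 and 0.977), and Plod1 most like Fndc3b, 2510009E07Rik and Bmpr2 (0.986, 0.979 and 0.977).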

How the data were processed

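The authors deposited raw UMI counts per gene and cell for both aortas, counted by Cell Ranger 4.0.0 (per the file headers) against mm10 plus the reporters, with 1 droplet library of the 3′ chemistry per aorta. The barcodes, 8947 and 6263, are as many as the labels give ahead of filtering.

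Cells of 1000 to 25000 UMIs, at least 200 genes and at most 10% mitochondrial counts were kept, doublets called by Scrublet in each aorta were removed, and scanpy 1.11.5 clustered the cells (2000 variable genes, 30 components, 15 neighbours, Leiden resolution 1.0). Clusters were named from marker lists. Of the 5 SMC clusters, 1 is not described on its own here and is included in sums and ranges. Raw counts were summed per aorta and cell type, and 14 sums were fitted with edgeR 4.0.16 (quasi-likelihood test, TMM factors, filterByExpr, cell type as the only term, Benjamini-Hochberg adjustment over all genes). The p-values rest on 2 aortas. Aorta numbers pair the sums, because cell types of 1 number come from the same animal; deviations of cell types correlated at -0.00731 to 0.147 over 15 pairs and 8721 genes. The genes and lists, the marker lists and the rules for naming other genes were chosen with earlier results of these data known: all 10 genes, the 5 pathway genes with the largest passing change in each direction, the 8 collagen chains highest in SMCs and fibroblasts, and the 3 genes most like each of the 10. Alternatives were DESeq2 1.42.0, other scaling, filters, clustering and a block by aorta. The fit was also run on counts simulated from its own estimate of spread. Cell types shared the same mean profile there, apart from 200 genes changed in SMCs, and no pairing by aorta was put in. That run cannot check the estimate of spread or the pairing in the real data. Gene symbols were matched to GENCODE M21 for 32235 of 32287 identifiers.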

Additional observations from a re-analysis of the deposited data

Results flagged for a closer look

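The 13 cells that were given no cell type, all from aorta 1, entered no comparison. They held 5 UMIs of P4ha1, above the 3 UMIs that a count of 0 allows, and this value is given without an explanation.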

How the results depend on the processing

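The counts of the 10 genes per direction, of all genes between SMCs and fibroblasts and of genes higher per collagen UMI stayed within 1.5 times of the main count under the alternatives run, with these exceptions. Genes higher in endothelial cells than in SMCs fell to 1 among cells of 5000 to 25000 UMIs. Genes higher in endothelial cells than in fibroblasts fell to 0 by edgeR with doublets kept, with these genes and the collagens in clustering, and at Leiden resolution 0.5. Right at the limit of 1.5 times, genes higher in fibroblasts than in SMCs fell from 9 to 6 among cells of 5000 to 25000 UMIs. With doublets kept they numbered 8. The collagen ratio of fibroblasts to SMCs was 4.26 and moved to 4.03 among cells of 5000 to 25000 UMIs, 4.10 with doublets kept and 4.46 without the mixed fibroblast cluster; it was 4.16 to 4.36 in single aortas. Differences that did not pass and changed sign were Bmp1 between SMCs and endothelial cells (-0.0275 under RLE factors, -0.0277 by DESeq2, -0.0724 under library totals and -0.0627 with doublets kept) and Plod1 between fibroblasts and endothelial cells (-0.0767 under library totals, -0.103 among cells of 5000 to 25000 UMIs, -0.0117 with doublets kept and -0.00596 with these genes in clustering, and -5e-05 without aorta 2). P3h1 between SMCs and endothelial cells, which did not pass either, was -0.0903 and became 0.0204 without aorta 2. The cause was not tested. All genes higher in SMCs and in fibroblasts numbered 3376 and 4241 in the main fit, 2427 and 5762 under RLE factors and 2304 and 5389 by DESeq2.

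With the aorta as a replicate block, the genes higher in SMCs than in endothelial cells numbered 5 and those higher in endothelial cells 3, against 4 and 2 without it, and the block changed no other call among the 40 tests of the 10 genes. Of 519 log2 fold changes with a test under alternatives, 473 stayed on their side of the threshold and in direction, 24 no longer passed, 14 newly passed and 8 changed sign. With 1 aorta left out no spread remained, so that setting gives values without a test: 55 of 80 lay within 1 standard error of the main value with the same sign and 25 did not. Leaving out the low-UMI SMC cluster, the mixed fibroblast cluster or the mesothelial cluster with Pdgfra, and the library totals, were chosen as alternatives after seeing the data. P3h2 outside SMCs and myeloid cells rests on 28 UMIs or fewer per type, which limits its comparisons there.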
